A study of Mus musculus with 12 samples.

Results

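The RNA held in anti-ORF1p immunoprecipitates (IP) was compared with the RNA of the sucrose fractions from which they were pulled (INPUT), in both directions and across repeat subfamilies, single repeat copies and genes. The members are the 3 IP and the 3 INPUT libraries, 6 of the 12 libraries of the series, taken by their labels. Both groups come from testes of C57BL/6 mice of 3 months of age that carry the Mael-/- genotype, so that every sample lacks Mael and no animal with Mael enters. Testis lysate received EDTA to 10 mM, was run on a sucrose gradient, and fractions 5 to 8 were pooled as INPUT. IP samples are what an antibody to L1 ORF1p on beads took out of that pool, and the beads only samples (BO) were treated likewise without the antibody. BO is given as the background for the repeat subfamilies, by value for the main ones and by counts for the rest, while the unfractionated extract (TOTAL) is not described. The labels do not say whether the 3 samples of a group came from separate animals, although the series calls them biological replicates. P-values here thus measure the spread between samples, which for limma was pooled over all 4 groups of the series.

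LINE-1 (L1) is a retrotransposon that copies itself through an RNA. Its RNA encodes ORF1p, a protein that coats RNA, and ORF2p, the enzyme that cuts DNA and reverse transcribes, and both preferentially bind the RNA that made them. Mael (Maelstrom) acts in the piRNA pathway that silences transposons in male germ cells, and without it L1 is expressed in spermatocytes, which then fail in meiosis. EDTA takes ribosomes apart into subunits, so the pooled fractions are meant to hold ribonucleoprotein particles rather than polysomes.

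In the deposited gene table, Mael was listed at 0 in both IP and INPUT as the authors' means. Markers of meiotic germ cells were abundant in INPUT: Sycp1, which builds the central part of the synaptonemal complex, had an INPUT mean of 12256, and Dazl, a germ cell RNA-binding protein, had 14267. The protamine genes of late spermatids were low, with INPUT means of 1.93 for Prm1 and 2.88 for Prm2, but 11 of 28 spermatid markers had enough reads to test, among them Txndc2 with an INPUT mean of 513 and Ldhc with 187. Somatic cells of the testis were present too, with 78351 for Clu of Sertoli cells and 19062 for Cyp17a1 of Leydig cells. Reads on repeat subfamilies, recovered from the normalised values, numbered 1384904 to 2003193 in the IP libraries and 3045169 to 3880641 in the INPUT libraries, and per the study's methods the IP libraries were made from less RNA than the INPUT libraries. The large subunit rRNA repeat took 2.16% to 5.62% of the reads in IP and 4.20% to 13.7% in INPUT. BO replicate 3 held 52.1% there, so its values on the other repeats rest on fewer reads. Among INPUT libraries, replicate 1 stood apart in small nuclear RNA, with 4.79% of its reads there against 1.37% and 0.963% in the other two.

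Across 1180 repeat subfamilies with a mean normalised count of at least 10, young L1 was higher in IP and small structured RNAs were lower, and endogenous retroviruses were called in both directions. Of 938 transposable element subfamilies (LINE, SINE, LTR and DNA classes), limma called 32 higher and 22 lower at a log2 fold change beyond 1 and an adjusted p under 0.05, read against 3.22% called higher and 2.88% called lower over all 1180 subfamilies. Outside those classes, 6 of 242 subfamilies were higher and 12 were lower. The split depends on how libraries are scaled: when each library was scaled to its total reads instead of its upper quartile, all log2 fold changes moved up by a median of 0.54 and the transposable element calls became 106 higher and 6 lower. With edgeR on the recovered reads they were 39 higher and 17 lower, and with DESeq2, or with scaling by the median ratio, 43 and 17. Fold changes below are on the deposited scale.

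**Figure D1:**
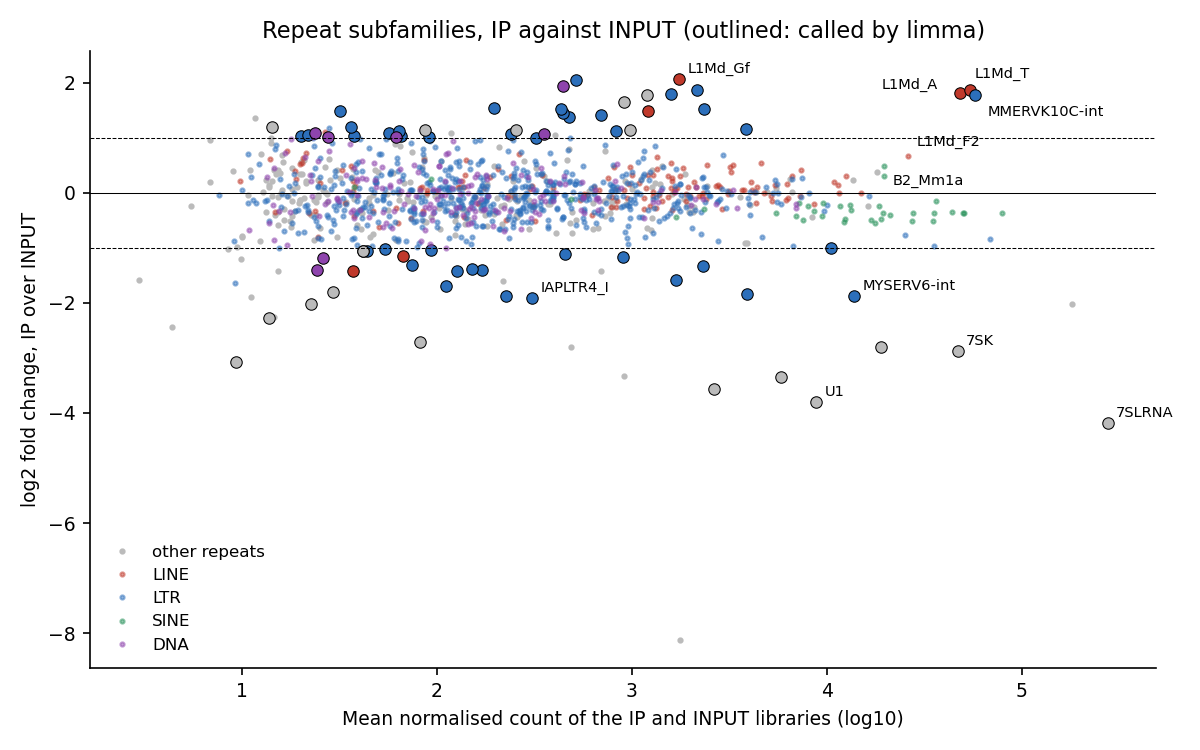
Log2 fold change of each repeat subfamily, IP over INPUT (vertical axis), against the mean normalised count of the 6 libraries on a log10 scale (horizontal axis), with 1 point per subfamily, coloured by class and outlined where limma called it; dashed lines mark a log2 fold change of 1 and -1. L1Md_A, L1Md_T and MMERVK10C-int combine a high level with a log2 fold change near 1.8, while 7SLRNA is the most abundant subfamily and lies at -4.19; the lowest point is tRNA-Ser-TCA(m), which was not called.

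The 3 young mouse L1 subfamilies L1Md_Gf, L1Md_T and L1Md_A were each higher in every IP library than in any INPUT library. These are the L1 subfamilies that still hold copies able to move. L1Md_A counted 95645, 75201 and 56029 in the IP libraries and 27258, 18980 and 17934 in the INPUT libraries, against 14131 to 15633 in BO. The lowest IP value was above the highest INPUT value, and the log2 fold change was 1.81 ± 0.20 (SE of the limma fit, n = 3 against 3, limma adjusted p = 6.59e-05). Here and below, SEs of log2 fold changes and limma p-values use a spread pooled over all 12 libraries, BO and TOTAL included. L1Md_T counted 111455, 84051 and 61962 in IP and 30493, 19784 and 19585 in INPUT, with 19423 to 20911 in BO. Its log2 fold change was 1.87 ± 0.22 (limma adjusted p = 0.000102), and IP and INPUT again did not overlap. L1Md_Gf, of far lower level, counted 3946, 2595 and 2005 in IP, 797, 627 and 548 in INPUT and 584 to 850 in BO, with a log2 fold change of 2.07 ± 0.25 (limma adjusted p = 0.000109).

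The older L1Md_F2 moved less. It counted 35788, 31395 and 29065 in IP and 23093, 19353 and 18235 in INPUT, with 19984 to 23707 in BO, a log2 fold change of 0.67 ± 0.12 that stayed under the 2-fold limit although its limma adjusted p was 0.00137. All 6 L1Md subfamilies tested had their 3 IP values above their 3 INPUT values, with log2 fold changes from 0.54 to 2.07. Among the 21 older rodent Lx subfamilies the median was 0.20 and none was called by limma. All IP values lay above all INPUT values in 13 of the 21, and below them in 0, where 17.4% and 26.4% of all subfamilies did. Among 83 ancient L1M subfamilies these were 13 and 12, the median was 0.01 and 1, L1ME3B, was called. L1ME3B counted 2105, 1791 and 1494 in IP and 642, 607 and 654 in INPUT, with 1098 to 1203 in BO, and its log2 fold change was 1.49 ± 0.11 (limma adjusted p = 3.57e-06). Over the 130 L1 subfamilies tested, 4 (3.08%, near the 3.22% of all subfamilies) were called higher and none lower by limma, and none lower by edgeR or DESeq2. Scaled to library totals, 17 of the 130 were called higher. On the deposited scale, 34 lay above 0 and 13 below 0 at an unadjusted limma p under 0.05. Many subfamilies of other classes passed this looser rule too, with 103 above and 143 below of 581 LTR and 22 and 36 of 169 DNA subfamilies. The other 2 LINE calls were the ancient CR1 elements X7A_LINE at -1.43 and X6B_LINE at -1.14, both low in level.

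In shares of reads, which do not depend on library scaling, LINE elements made up 26.5% to 29.7% of transposable element reads in the 3 IP libraries and 17.9% to 19.9% in the 3 INPUT libraries. These ranges do not overlap, and the two-sided exact permutation test gave p = 0.1, which is as low as 3 libraries against 3 can reach. Within L1, L1Md_A held 16.5% ± 2.78 (SD, n = 3) of reads in IP and 7.04% ± 0.938 in INPUT, and L1Md_T held 15.1% to 22.4% and 6.85% to 9.09%. The share of L1Md_F2 was 7.09% ± 0.108 and 6.71% ± 0.171, so that it kept nearly the same place within L1.

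**Figure D2:**
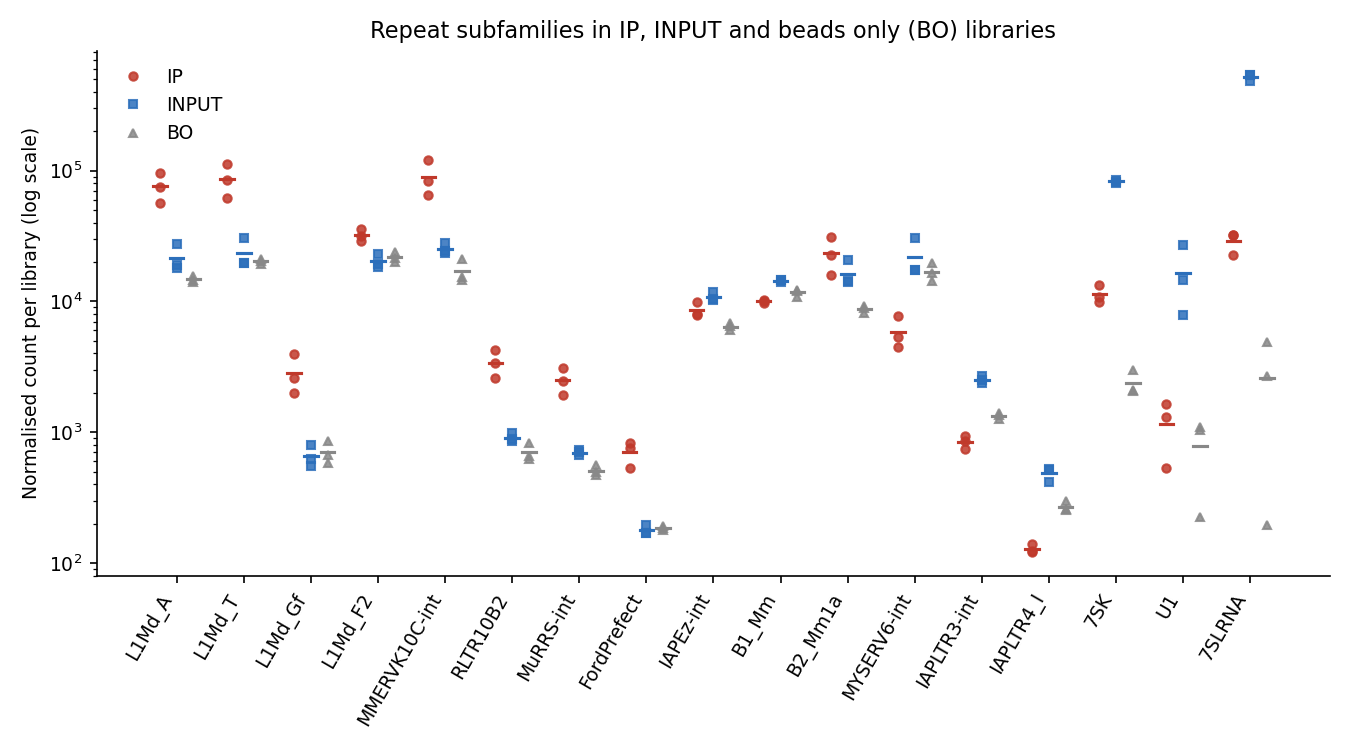
Normalised count per library (vertical log axis) of 17 repeat subfamilies in IP (circles), INPUT (squares) and BO (triangles), with 3 libraries per group and short lines at the group means. L1Md_A, L1Md_T, L1Md_Gf and MMERVK10C-int have all IP points above all INPUT points, and 7SLRNA, 7SK and U1 have them more than 2-fold below, with BO lower still or near IP.

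The LTR class, mostly endogenous retroviruses, makes up 581 of the 938 transposable elements tested. It also holds Gypsy elements, among them MamGypLTR3 and, marked as uncertain, LTR85c. The class gave 23 of the 32 calls higher and 18 of the 22 calls lower. As shares of the 581 these are 3.96% and 3.1%, close to the 3.22% and 2.88% of all subfamilies. MMERVK10C-int, the internal part of an ERVK provirus, counted 119611, 83727 and 65446 in IP and 28159, 23331 and 24366 in INPUT, with 14639 to 20953 in BO. Its log2 fold change was 1.79 ± 0.20 (limma adjusted p = 7.24e-05), and it held 28.6% ± 3.91 of ERVK reads in IP against 7.50% ± 0.173 in INPUT. RLTR10B2, an ERVK LTR, counted 4268, 3349 and 2571 in IP and 989, 891 and 848 in INPUT, a log2 fold change of 1.87 ± 0.17. RLTR10B, its close relative by name, stood at 1.52 ± 0.17, and 9 of the 10 RLTR10 subfamilies had all IP values above all INPUT values, where 17.4% of all subfamilies did.

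Of the ERV1 group, which holds relatives of murine leukaemia virus, LTRIS_Mm and MuRRS-int were the highest. LTRIS_Mm counted 1072, 746 and 689 in IP and 205, 184 and 199 in INPUT, a log2 fold change of 2.06 ± 0.19. MuRRS-int counted 3086, 2448 and 1926 in IP and 727, 704 and 664 in INPUT, a log2 fold change of 1.80 ± 0.14. FordPrefect, a DNA transposon of the hAT group, counted 830, 752 and 529 in IP and 195, 169 and 171 in INPUT, a log2 fold change of 1.95 ± 0.20. None of these overlapped between the groups, and the highest BO value of each was below its lowest IP value. RLTR19A counted 290, 310 and 272 in IP and 110, 84.9 and 105 in INPUT, at 1.54 ± 0.14. RLTR13B4 counted 759, 666 and 510 in IP and 263, 207 and 194 in INPUT, at 1.53 ± 0.16. Both are ERVK LTRs, and neither overlapped between IP and INPUT.

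The other LTR subfamilies called higher were LTR85c at 1.49, MER34A1 at 1.46, ERV3-16A3_I-int at 1.42, LTR72_RN at 1.38, RLTR19D at 1.20, IAPEy-int at 1.16, IAPLTR3 and MLT1G3 at 1.13, MLT1G3-int at 1.09, MURVY-int at 1.07, MamGypLTR3 at 1.06, MER52-int and MER92B at 1.04, RLTR43C at 1.03, RLTR3_Mm at 1.02 and IAPEY_LTR at 1.01 in log2 fold change. The other DNA elements were DNA1_Mam at 1.09, Charlie6 at 1.07, and Charlie25 and MER45C at 1.02. In 28 of the 32 transposable elements called higher every IP value was above every BO value. The exceptions, which overlapped BO, were DNA1_Mam, RLTR43C, MER92B and Charlie25, the last with 69.1 to 112 in IP and 56.1 to 72.9 in BO. Many of these calls lie near the 2-fold limit: 15 of the 32 were called whichever library was left out, and the other 17 lost the call without at least 1 library, namely LTR85c, RLTR19D and all those listed with a smaller log2 fold change than RLTR19D.

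The lowest transposable elements were IAP-related and other ERVK subfamilies, which lay on the opposite side from MMERVK10C-int. IAPLTR4_I counted 140, 124 and 121 in IP and 416, 517 and 522 in INPUT, with 252 to 297 in BO, a log2 fold change of -1.90 ± 0.12 (limma adjusted p = 9.2e-07). IAPLTR4 counted 89.7, 104 and 93.6 in IP and 365, 376 and 325 in INPUT, at -1.88 ± 0.10. IAPLTR3-int counted 931, 862 and 746 in IP and 2512, 2396 and 2665 in INPUT, at -1.58 ± 0.09. For all of these, IP was below BO as well as below INPUT. The IAP names did not move as a block: of 25 tested, 3 were called higher and 3 lower, and IAPEz-int, the largest of them, counted 9953, 7854 and 7946 in IP against 11707, 10268 and 10380 in INPUT, a log2 fold change of -0.34 ± 0.11 on the deposited scale and 0.21 when libraries were scaled to their totals.

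MYSERV6-int counted 7788, 5340 and 4494 in IP and 30539, 17383 and 17329 in INPUT, with 14373 to 19532 in BO, and its log2 fold change was -1.87 ± 0.26. RMER6B followed the same pattern over libraries, with 2196, 1582 and 1300 in IP and 8178, 5080 and 4954 in INPUT, at -1.84 ± 0.22. MMTV-int, the internal part of endogenous mouse mammary tumour virus, counted 44.1, 52.5 and 58.5 in IP and 134, 185 and 192 in INPUT, at -1.69 ± 0.24. No IP library reached an INPUT library in any of these, and for MYSERV6-int and RMER6B replicate 1 was the highest in both groups. X7A_LINE counted 13.2, 17.9 and 30.2 in IP and 50.7, 53.9 and 56.7 in INPUT. RLTR13A counted 61.8, 62.7 and 81.0 in IP and 205, 173 and 172 in INPUT, at -1.41 ± 0.22. Tigger1a_Art, a DNA element, counted 10.3, 16.6 and 10.7 in IP and 44.1, 20.4 and 43.8 in INPUT, at -1.40 ± 0.36. The last of these rests on few reads, since 1 read was worth 0.756 to 1.47 normalised counts in these libraries.

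RLTR9B and RLTR46B at -1.39, ETnERV3-int at -1.32, LTR82B at -1.31, the DNA element MER106A at -1.19, RMER12B at -1.17, MURVY-LTR at -1.11, LTR45 and MLTR32C_MM at -1.05, MER21-int at -1.03, MER88 at -1.02 and ERVB4_1-I_MM-int, just past the 2-fold limit, complete the elements called lower. Of the 22 called lower, 14 had every IP value below every BO value and the other 8 overlapped BO, among them MMTV-int, RLTR13A and RLTR9B. Leaving out a library in turn, 14 of the 22 were called each time, and the 8 that lost the call without at least 1 library were Tigger1a_Art, MER106A, X6B_LINE, LTR45, MLTR32C_MM, MER21-int, MER88 and ERVB4_1-I_MM-int. IAPLTR3 and MURVY-int were called higher while IAPLTR3-int and MURVY-LTR, named as parts of the same proviruses, were called lower. Their reads are counted apart by the repeat annotation.

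SINEs, the short elements that depend on L1 proteins to move, had no call: of 35, none was called higher or lower by limma, edgeR or DESeq2. At an unadjusted limma p under 0.05 none lay above 0 and 29 lay below. By that rule 143 of 581 LTR and 36 of 169 DNA subfamilies lay below 0 as well, and 103 and 22 above. The median log2 fold change of the SINEs was -0.36 on the deposited scale and 0.19 when libraries were scaled to their totals, where 1 was called higher. All 10 subfamilies named B1 had their 3 IP values below their 3 INPUT values, where 26.4% of all subfamilies did. B1_Mm, of the family descended from 7SL RNA, counted 9725, 10035 and 10278 in IP and 14491, 14556 and 14035 in INPUT, a log2 fold change of -0.52 ± 0.07 that became 0.02 when libraries were scaled to their totals. B2_Mm1a, of the family descended from a tRNA, counted 15882, 31194 and 22646 in IP and 20587, 14042 and 14195 in INPUT, so that the groups overlapped (log2 fold change 0.48 ± 0.23, limma adjusted p = 0.135). In shares, the B1 family (Alu in the annotation) made up 12.6% ± 0.695 of transposable element reads in IP and 16.7% ± 0.718 in INPUT, and all SINEs 34.9% ± 3.26 and 42.2% ± 1.45 (exact permutation p = 0.1 for each). The direction of the SINE share depends on the denominator: of the reads on all subfamilies, structured RNAs included, SINEs made up 27.0%, 31.2% and 31.7% in IP and 26.0%, 25.6% and 25.3% in INPUT (exact permutation p = 0.1).

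The largest differences of all were in small structured noncoding RNAs, which were lower in IP. 7SLRNA, the RNA of the signal recognition particle, counted 32328, 31962 and 22706 in IP and 485266, 541231 and 540793 in INPUT, with 196 to 4905 in BO. Its log2 fold change was -4.19 ± 0.85 (limma adjusted p = 0.00342), and its share of all repeat reads was 1.59%, 1.63% and 1.16% in the IP libraries and reached 18.7% in INPUT, a log2 ratio of the mean shares of -3.63. 7SK, a regulator of transcription elongation, counted 10859, 13423 and 9865 in IP and 84798, 82406 and 80364 in INPUT, at -2.87 ± 0.19 (limma adjusted p = 9.2e-07). BO held less of both than IP did. The means of single 7SLRNA copies in the gene table summed to only 78.7 in IP and 171.5 in INPUT, far below the subfamily counts. Their log2 ratio of -1.11 had the same direction, but it rests on few reads and is not a like measure.

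Spliceosomal and nucleolar RNAs followed. U1 counted 534, 1652 and 1296 in IP and 26989, 14686 and 7897 in INPUT, at -3.80 ± 0.60. U4 counted 132, 440 and 296 in IP and 11837, 1653 and 1487 in INPUT, at -3.57 ± 0.76. U3, which guides rRNA processing, counted 502, 1047 and 920 in IP and 22558, 5721 and 4014 in INPUT, at -3.35 ± 0.56. INPUT replicate 1 was the highest in each, and every IP value lay below every INPUT value. U8 at -3.08, U2 at -2.81 and U17 at -2.70 were called lower as well, 6 of the 10 subfamilies of the snRNA class in all. Without INPUT replicate 1 the U4 log2 fold change was -2.60, the U3 log2 fold change -2.61, the U2 log2 fold change -2.08 and the U8 log2 fold change -2.43, and all 4 were still called by limma, and U8 rests on at most 1 read in any IP library. IP overlapped BO in 8 of the 12 subfamilies called lower outside the transposable elements. Further calls lower were tRNA-Ser-TCG at -2.27, tRNA-Ala-GCG at -1.06 and the simple repeats (CACTC)n at -2.02 and (TTGGGG)n at -1.81. The (CACTC)n log2 fold change moved to -1.40 without IP replicate 2 and to -2.66 without IP replicate 3, and it and tRNA-Ala-GCG lost the call without at least 1 library.

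tRNA-Ser-TCA(m) had a fitted log2 fold change of -8.12 that limma did not call (adjusted p = 0.0799), since it counted 0 in every IP library and 7749, 2792 and 0 in INPUT. INPUT replicate 3 thus shared the 0 of the IP libraries, and without it the tRNA-Ser-TCA(m) log2 fold change was called by limma (adjusted p = 0.00661). Among simple repeats, (CTG)n counted 2561, 1494 and 1494 in IP and 408, 577 and 600 in INPUT, at 1.78 ± 0.29. Its complement (CAG)n counted 1681, 1385 and 1076 in IP and 334, 436 and 543 in INPUT, at 1.66 ± 0.26. (CTATG)n at 1.20, (ATG)n at 1.15, (CTA)n at 1.15 and (TCG)n at 1.14 were also called higher, though (CTATG)n and (CTA)n lost the call without at least 1 library. UCON28a, an old repeat of unknown class, had 1.36 with overlapping groups and was not called (limma adjusted p = 0.072) unless INPUT replicate 2 was left out, at 1.76.

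The gene table also counts single repeat copies. It keeps multimapped reads in a row apart, but how reads shared by near-identical copies were counted is not given in the sources used here, so values of single young copies are uncertain. Only the authors' group means were used from it, so the values below carry no spread and no test. Of 6645 copies with an average of both means of at least 10, 1466 (22.1%) were more than 2-fold higher in IP and 2072 (31.2%) more than 2-fold lower, on log2((IP mean + 1)/(INPUT mean + 1)). A copy can pass this filter through its IP mean alone, in which case it had to differ, so the counts below describe the copies that passed and are not support for a difference. Among them 144 of 158 L1Md_A copies and 137 of 149 L1Md_T copies were higher, with medians of 1.83 and 1.80, against a median of -0.25 over all copies. L1Md_F2 copies were higher in 95 of 145 with a median of 1.33. When copies were instead required to reach an INPUT mean of 10, a filter that favours the other direction and was chosen after seeing the data, 497 of 8152 copies were higher and 4327 lower, with a median of -1.09. Under it 17 of 25 L1Md_A copies and 21 of 32 L1Md_T copies were higher, with medians of 1.61 and 1.59, and 38 of 91 L1Md_F2 copies, with a median of 0.69. Copies lower in these subfamilies numbered 1, 4 and 14 under it, and 0, 4 and 6 under the first filter. Centring on the median gene lowers all of these ratios by 0.15.

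By the deposited means, the higher level of L1Md_A and L1Md_T was spread over many copies. How far this reflects the way shared reads were assigned was not tested. The leading L1Md_T copy held 0.72% of the summed IP means of its subfamily. The L1Md_A copy with the highest IP mean, L1Md_A_3685, had 123 in IP and 69.4 in INPUT, and held 0.827% of the summed IP means of its subfamily. L1Md_A_2595 had 123 and 28.8, and L1Md_A_16742 had 113 and 36.7. Of L1Md_T, copy L1Md_T_5423 had 134 in IP and 31.6 in INPUT, L1Md_T_3237 had 66.7 and 17.8, and L1Md_T_16809 had 64.4 in IP, a log2 ratio of 2.03.

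MMERVK10C-int copies were less uniform, with 70 of 158 higher and 15 lower at a median of 0.82, or 48 of 137 higher and 18 lower with the filter on INPUT. MMERVK10C-int_186 had 1633 in IP and 162 in INPUT, a log2 ratio of 3.32, and alone held 9.41% of the summed IP means of the subfamily against 2.11% in INPUT. MMERVK10C-int_2484 had 1128 and 232, and MMERVK10C-int_188 had 682 and 50.8, a log2 ratio of 3.72.

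**Figure D3:**
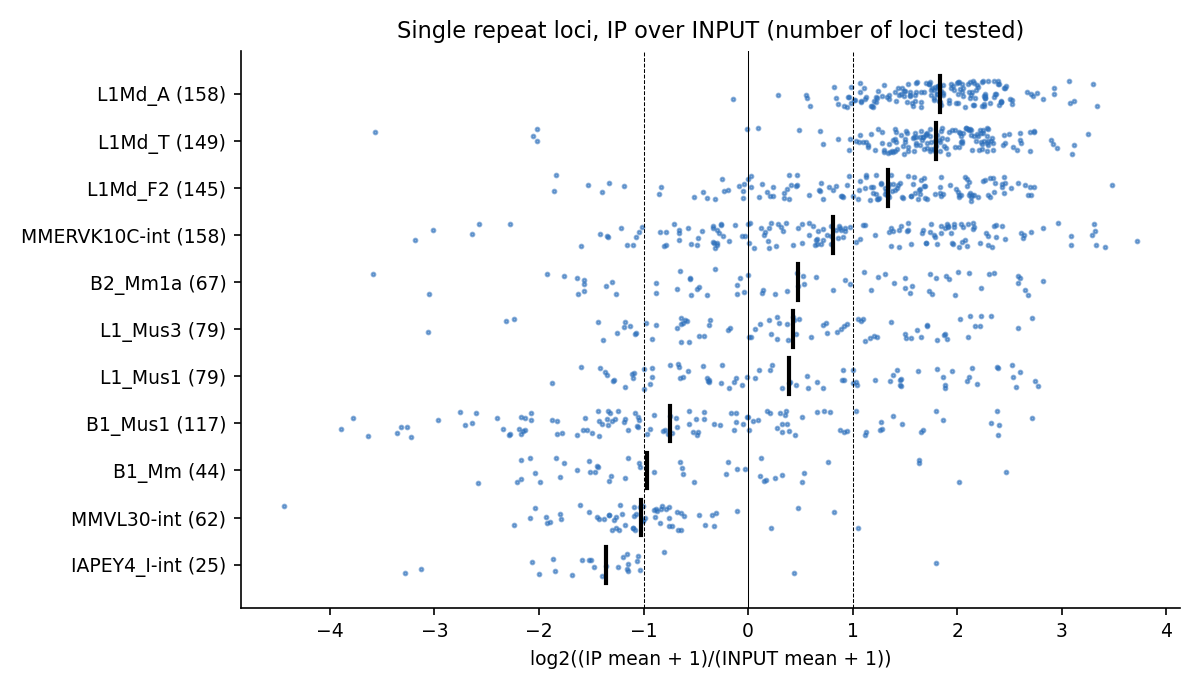
Log2 ratio of the authors' means, log2((IP mean + 1)/(INPUT mean + 1)) (horizontal axis), of single repeat copies with an average of at least 10, by subfamily (vertical axis, with the number of copies tested); each point is a copy, thick lines are medians and dashed lines mark 2-fold. Copies of L1Md_A and L1Md_T lie almost entirely above 0, MMERVK10C-int copies range on both sides, and B1_Mm, MMVL30-int and IAPEY4_I-int copies lie mostly below 0.

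In 11 of the 32 transposable elements called higher, a single copy held over 50% of the summed IP means. This count sets no floor on the sums, and includes RLTR3_Mm with a summed IP mean of 0.419 and MER52-int with 12.44. Copy FordPrefect_30 held 91.6% in FordPrefect, and the shares were 79.3% for MuRRS-int_196, 82.8% for RLTR13B4_378, 82.6% for MLT1G3_737, 82.9% for MER34A1_504 and 98.1% for LTR85c_69. In others no copy dominated, with 22.7% for the leading copy of RLTR10B2, 15.4% for that of L1ME3B and 9.43% for that of IAPEy-int. MuRRS-int_196 had 796 in IP and 109 in INPUT, a log2 ratio of 2.85, and RLTR13B4_378 had 414 and 53.2, a log2 ratio of 2.94.

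Counts of subfamilies, where ambiguous reads were reassigned among copies, and sums over the copies of the gene table did not always move alike. Of the 32 transposable elements called higher, 29 had summed copy means of at least 20 over both groups, and 24 of these were also above 0 by their summed copies, 14 of them past 2-fold. Of the 22 called lower, 20 could be summed and 19 were below 0. L1ME3B had a log2 ratio of summed copies of -0.06, Charlie6 -0.99, MURVY-int -0.82, LTR72_RN -0.33 and RLTR43C -0.25, opposite in sign to their subfamily calls. Among those called lower, MYSERV6-int was at -0.21 and RLTR9B at 0.01. L1Md_A at 1.70, L1Md_T at 1.75, L1Md_Gf at 1.85 and MMERVK10C-int at 1.18 kept their direction by either count.

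Among SINE copies 358 of 2761 were higher and 1114 lower, and the B1 family had 438 of 1003 lower with a median of -0.71. B2_Mm1a copies were higher in 27 of 67 and lower in 12. With the filter on INPUT 3 of 68 were higher and 32 lower with a median of -0.94, close to the median of -1.09 over all copies under that filter. Of LTR subfamilies, 22 of 25 IAPEY4_I-int copies and 34 of 62 MMVL30-int copies were lower, where 31.2% of all copies were. With the filter on INPUT 24 of 26 and 42 of 69 were lower, where 4327 of all 8152 copies were. Their medians were then -1.44 and -1.09, so that MMVL30-int stood level with all copies. Copies of snRNA were lower in 19 of 20, with a median of -3.61, the direction also seen for the subfamilies U1, U2, U3 and U4.

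For genes likewise only the authors' group means were used, so the values below carry no error and no test. A gene low in one group can pass the filter on level through the other alone, and had then to differ. Of 14400 genes with an average of both means of at least 10, 2947 (20.5%) were more than 2-fold higher in IP and 2108 (14.6%) more than 2-fold lower, with a median log2 ratio of 0.15 over all of them. Most listed genes of meiosis, cell division and the piRNA pathway were higher in IP, and those of somatic testis cells, together with small nucleolar RNAs, were mostly lower. The balance of the calls depends on scaling: centred on the median gene they were 2377 higher and 2573 lower, and scaled to the summed gene means, which lowers every log2 ratio by 0.53, they were 1303 higher and 4076 lower. Both scalings shift every log2 ratio by the same amount and leave the order of genes and lists as it is. Where scaling to the summed means moves a list's count by over 1.5 times, both counts are given.

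The 15 genes with the highest ratios among well covered genes (average of at least 100) held several genes of the meiotic chromosome. Sycp3, of the lateral element of the synaptonemal complex, had 3293 in INPUT and 27536 in IP, a log2 ratio of 3.06. Hsp90aa1, a stress-inducible chaperone abundant in male germ cells, had 9190 and 76007, a ratio of 3.05. Hormad1, which marks unsynapsed chromosome axes, had 2426 and 19165, a ratio of 2.98. Tktl1, a transketolase-like gene, had 2305 and 17999. Also among them were Glipr1l2 at 3.28, the ceramide synthase Cers3 at 3.21, the homeobox gene Alx1 at 3.03, the testis-specific pyruvate dehydrogenase subunit Pdha2 at 3.01, the pseudogene Sycp1-ps1 at 2.96, the meiotic recombination gene Mnd1 at 2.90, Lrrc6 of the cilium at 2.89, Ptprq at 2.89, the apoptosis gene Pmaip1 at 2.87 and the sperm protein gene Crisp2 at 2.81. Sycp1-ps1 can share reads with Sycp1, whose own log2 ratio was 2.55, so its value is uncertain.

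The 15 lowest were mostly small noncoding RNAs. Vaultrc5, a vault RNA, had 3102 in INPUT and 4.99 in IP. Rpph1, the RNA of ribonuclease P, had 30116 and 1153, a log2 ratio of -4.71, and Rmrp, the RNA of the related ribonuclease MRP, had 33457 and 3096, a ratio of -3.43. Rnu12, a small nuclear RNA of the minor spliceosome, had 442 and 16.9, a ratio of -4.63. The Cajal body RNAs Scarna13, Scarna6, Scarna10, Scarna9 and Scarna2 had ratios of -4.51, -4.43, -3.99, -3.85 and -3.32. The long noncoding RNAs Firre and Meg3 stood at -3.34 and -3.09. Among protein-coding genes, Apoc1, an apolipoprotein, had 994 in INPUT and 97.2 in IP, a ratio of -3.34. Ptgds, a secreted prostaglandin synthase, had 11290 and 1289, a ratio of -3.13. Cd59a, a complement inhibitor on the cell surface, was at -3.11, and Tmem35, a membrane protein, at -3.06.

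The sequences of Scarna13 and Rnu12 are shown because such short structured RNAs are the kind of transcript most reduced in IP. They were read 5′ to 3′ from the GENCODE M21 transcripts of the GRCm38 (mm10) build. Scarna13 lies at chr12:105031075-105031349 on the minus strand, within the bounds of its host gene Snhg10 on the same strand, and Rnu12 at chr15:83149644-83149794 on the plus strand. Capitals mark the trinucleotide ACA that stands 3 bases before the end of Scarna13, the place of the box that names H/ACA RNAs. ACA stands there in 301 of 1558 annotated snoRNA and scaRNA transcripts (19.3%). Scarna6, with a log2 ratio of -4.43, does not have ACA at that place.
Scarna13: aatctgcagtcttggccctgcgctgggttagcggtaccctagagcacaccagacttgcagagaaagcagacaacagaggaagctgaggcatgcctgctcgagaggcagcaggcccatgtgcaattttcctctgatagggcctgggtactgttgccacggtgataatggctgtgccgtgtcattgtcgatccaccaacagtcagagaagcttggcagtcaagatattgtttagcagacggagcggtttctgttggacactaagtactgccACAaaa
Rnu12: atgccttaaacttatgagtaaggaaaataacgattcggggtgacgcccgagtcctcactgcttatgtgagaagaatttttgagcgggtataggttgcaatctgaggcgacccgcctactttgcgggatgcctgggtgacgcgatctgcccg

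Of 22 snoRNA and scaRNA genes tested, 21 were lower and none higher, with a median of -3.25, and Snord89 was the lowest at -4.91. Their host transcripts were less affected, with 5 of 12 lower and a median of -0.68, or 8 lower when scaled to the summed means. Gas5 had 553 in INPUT and 252 in IP, and Snhg1 had 309 and 345. Snhg10 had 18.6 and 3.51, of which the part that comes from Scarna13 itself was not separated. Of 8 long noncoding RNAs known for nuclear roles, 4 were lower: Malat1 had 61842 in INPUT and 17878 in IP, and Meg3, Rian and Neat1 were lower too. Kcnq1ot1 was the single exception past 2-fold in the other direction, at 1.49, and lay within 2-fold when scaled to the summed means. Replication-dependent histones, whose mRNAs lack a poly(A) tail, had 16 of 52 lower and none higher (32 lower when scaled to the summed means), with Hist1h4a at -1.92, while Hist1h2ba, the testis-specific H2B, had 4138 and 5489. Many histone genes are near copies of each other, which leaves their separate values uncertain.

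Genes of the meiotic chromosome axis were the list with the highest median. Of 14 tested, 13 were higher and none lower, with a median log2 ratio of 1.97. Sycp1 had 12256 in INPUT and 71902 in IP, and the meiotic cohesin subunit Smc1b had 5703 and 36963, a log2 ratio of 2.70. Rec8, another cohesin subunit, was the exception, with 162 and 177. Of 27 genes of meiotic recombination 24 were higher, with a median of 1.64. Dmc1, the meiotic strand-exchange protein, had 1295 and 7599, Hsf2bp, which brings Brca2 to breaks, had 272 and 1785, and Brca2 had 5304 and 15696. The other 3 stayed within 2-fold.

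Genes of chromosome segregation and the cell cycle had 30 of 32 higher with a median of 1.77. Ccnb3, a cyclin of meiosis, had 3806 in INPUT and 23975 in IP, Nuf2 of the kinetochore had 627 and 3815, and Top2a, which untangles DNA, had 19497 and 84564. Of 22 piRNA and germ granule genes, 15 were higher and none lower, with a median of 1.38, or 9 higher with a median of 0.85 when scaled to the summed means. The helicase genes Ddx4 and Mov10l1 had log2 ratios of 2.21 and 2.19, and Piwil2, a PIWI protein of these cells, had 6186 and 21178. Piwil4, which acts in fetal germ cells, had 55.7 and 43.2.

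Among RNA-binding regulators of germ cells 12 of 20 were higher and 2 lower, or 6 and 2 when scaled to the summed means. Boll was at 2.52, Ythdc2 at 2.20 and Dazl at 2.00, whereas Msi2, a Musashi protein, had 9617 in INPUT and 2272 in IP, a ratio of -2.08, and its paralogue Msi1 was at -1.09. Pum2 stayed within 2-fold at 0.75. Of 30 genes for proteins of RNA granules or known to bind ORF1p, 11 were higher and 1 lower, with a median of 0.76, or 4 higher and 3 lower with a median of 0.23 under that scaling. Pabpc1, the poly(A)-binding protein, was the highest at 2.42 and Fxr1 stood at 1.97, Cnot1 of the deadenylase complex was at 0.77, Mov10, a helicase that restricts L1, had 1799 and 1671, and Purb was the 1 lower, at -1.11.

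Cilium and flagellum genes had 23 of 34 higher and 2 lower with a median of 1.22 (14 and 4 when scaled to the summed means), led by Ift80 and Bbs7 at 2.40. Of 28 spermatid markers only 11 were abundant enough to test, of which 5 were higher and 2 lower, among them Ldhc, a testis lactate dehydrogenase, at 1.99 and Txndc2, a thioredoxin of the sperm tail, at -1.46. Without the filter 6 of the 28 were higher and 10 lower, with a median of -0.43, and when scaled to the summed means 2 of the 11 were higher and 3 lower. Chaperones had 17 of 27 higher and none lower, with a median of 1.28, or 8 higher with a median of 0.75 under that scaling. The subunits of the chaperonin that folds actin and tubulin stood between 0.75 for Cct5 and 2.04 for Tcp1, apart from Cct6b at 0.26. The endoplasmic chaperones Hspa5 and Hsp90b1 were at 0.63 and 0.33, and Hspa8 had 8838 and 9183.

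Genes of chromatin silencing had 11 of 22 higher and none lower, with Hells, a remodeller needed for DNA methylation, at 2.27 and the histone methyltransferase Setdb1 at 1.58. DEAD and DEAH helicases had 23 of 54 higher and 1 lower, and kinesins 18 of 37 higher and none lower. Scaled to the summed means, chromatin silencing had 5 higher and 1 lower, the helicases 11 and 3, and the kinesins 11 and 4. Among translation factors 12 of 34 were higher, or 7 higher and 2 lower under that scaling, with Eif4a2 at 2.22 and Eef2 at 0.79. Proteasome subunits had 7 of 32 higher and 3 lower, which as shares are not far from the 20.5% and 14.6% of all genes, and 1 higher and 3 lower when scaled to the summed means. Psma8, the meiotic subunit, was at 2.76. Of 82 cytosolic ribosomal protein genes 19 were higher, a share also near that of all genes, but only 2 were lower, where 14.6% of all genes were. Their median of 0.49 was above the 0.15 of all genes, and 57 of the 82 lay above that median gene. Under that scaling their median became -0.05, with 4 higher and 7 lower. Rpl10l, the testis form of Rpl10, was at 2.52. Mitochondrial ribosomal proteins, with a median of 0.30, and 318 Zfp zinc finger genes, with a median of 0.29, also turned negative under it, at -0.23 and -0.24. Their counts went from 11 higher and 3 lower to 3 and 11 for the former, and from 51 and 8 to 11 and 41 for the latter. Under that scaling the median of all genes tested was -0.38, so all 3 of these list medians stayed above it. Of all 14400 genes, 1303 were then higher and 4076 lower.

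Somatic cell markers lay on the other side. Of 20 Sertoli cell genes 15 were lower and none higher, with a median of -1.68. Clu had 78351 in INPUT and 20843 in IP, the tight junction gene Cldn11 had 5980 and 1372, and Drd4 was the lowest at -2.30. The Sertoli cell transcription factors Sox9 and Wt1 were less reduced, with log2 ratios of -0.34 and -0.26. Of 18 Leydig cell genes 12 were lower, with a median of -1.33, and Insl3, the Leydig cell hormone, had 714 and 89.6, a ratio of -2.98, while Fdx1 and Por stayed at -0.33 and -0.31. Of 23 markers of peritubular cells, vessels and macrophages 13 were lower and none higher, with Cd34 at -2.68 and Dcn at -2.65, and Mrc1 at -0.19. IP was drawn from the kind of pool that INPUT is, so these ratios compare RNA found in IP with RNA offered to it. They were not read as cell numbers, and what lies behind them was not tested. Beads only values were not used for genes, so the part held by bare beads was not separated. In the INPUT levels themselves, fewer cells of a type and less RNA per cell cannot be told apart.

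Spermatogonial genes had 2 of 20 higher and 2 lower, with a median of -0.48, or 1 higher and 10 lower with a median of -1.01 when scaled to the summed means. Sohlh2, a factor of differentiating spermatogonia, was at 2.08, while the receptor Kit was at -0.78 and Dmrt1 at -0.67. Solute carrier transporters, membrane proteins that move small molecules, had 81 of 260 lower and 16 higher, with a median of -0.50, or 137 lower and 6 higher under that scaling, and Slc7a5 had 10616 and 4280. Nuclear genes of the respiratory chain had 10 of 48 lower and 3 higher (16 lower and none higher under that scaling), with Cox6a1 at -2.10 and Atp5a1 at 0.44. Genes of glycolysis had 3 of 18 higher and 1 lower, or 2 and 4 under that scaling. Of the 373 olfactory and vomeronasal receptor genes only 12 were abundant enough to test, 6 of them higher and 3 lower, or 4 of each under that scaling. Over all genes 20.5% were higher and 14.6% lower, or 1303 and 4076 of 14400 under that scaling. The share of glycolysis genes higher was near that of all genes.

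**Figure D4:**
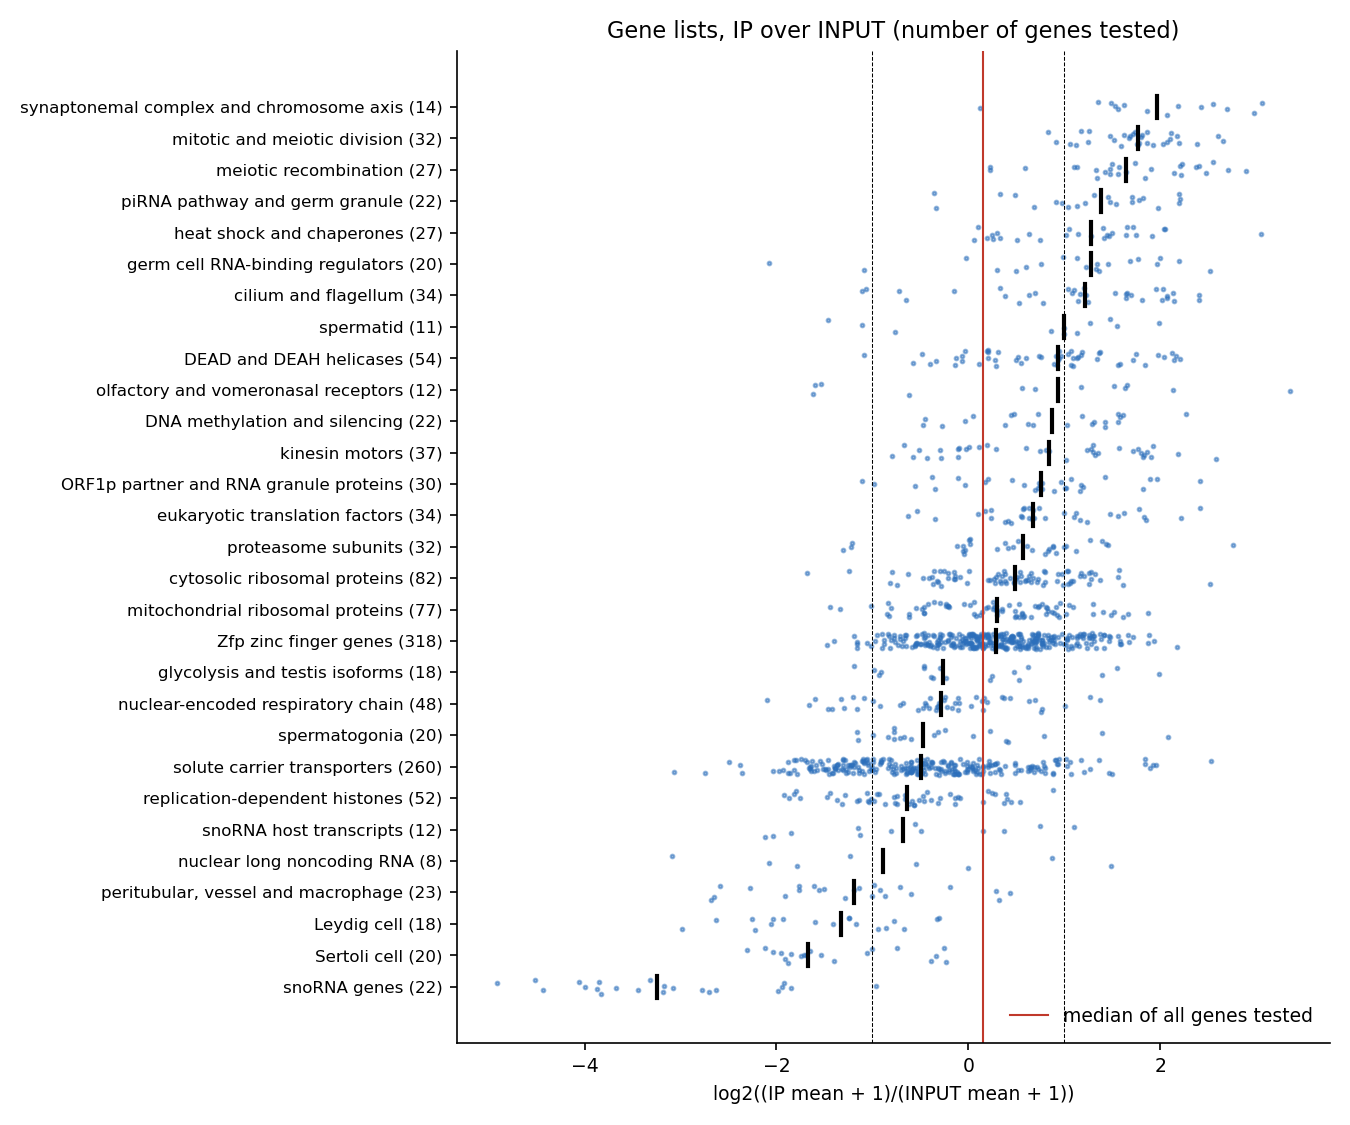
Log2 ratio of the authors' means, IP over INPUT (horizontal axis), for the genes of 29 lists (vertical axis, with the number tested); each point is a gene, thick black lines are list medians, the red line is the median of all genes tested (0.15) and dashed lines mark 2-fold. Lists of meiosis and division lie to the right, with medians of 1.64 to 1.97, and Sertoli, Leydig and snoRNA lists to the left, with medians of -1.33 to -3.25.

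Base composition moved with the ratio across the 13850 protein-coding genes tested. Genes were put into quintiles, groups of equal size. Of the quintile of genes with the lowest GC content in their longest transcript, 38.1% were higher in IP and 11.8% lower, while of the quintile with the highest GC content 5.96% were higher and 17.5% lower. Adenine content ran the other way, with 5.16% higher in the lowest quintile and 40.7% in the highest. From the quintile of shortest to that of longest transcripts, the share lower went from 20.1% to 10.5% and the share higher from 20.3% to 17.1%. From the lowest to the highest quintile of INPUT mean, itself part of the ratio, they went from 18.3% to 10.2% and from 21.1% to 22.6%. Spearman's rho with the log2 ratio was -0.28 for GC content, 0.31 for adenine content, 0.05 for transcript length and 0.13 for INPUT mean. All of the 13850 genes come from the same pair of means. Genes do not count as replicates of a condition, so these values are given as a description, and the part of base composition in the result was not tested.

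The lists differ in composition too. The median GC content was 40.3% for the chromosome axis genes, 45.1% for recombination and 44.0% for division, against 49.7% over all protein-coding genes, 52.0% for the Sertoli cell list and 49.1% for the Leydig cell list. Set against the median of the genes in the same quintile of GC content, all 14 chromosome axis genes, all 27 recombination genes and all 32 division genes had higher ratios, by medians of 1.66, 1.29 and 1.28. This is a description and does not test what composition contributes. None of the 20 Sertoli or the 18 Leydig cell genes was above the median of its quintile, and their medians were -1.66 and -1.82 relative to it. Zfp zinc finger genes, with a median GC content of 45.3%, were level with their quintiles, at -0.05.

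A further feature was the start of the coding sequence. Codons with T at the second position encode the hydrophobic amino acids that make up signal peptides and membrane anchors. Of the quintile of genes with the most such codons among codons 2 to 31, 24.4% were lower in IP and 12.6% higher, while in the quintile with the fewest 9.54% were lower and 27.2% higher. With the somatic cell lists left out, 85 of 280 genes with at least 50% of such codons were lower (30.4%) and 27 were higher (9.64%), against 126 of 1539 lower (8.19%) and 329 higher (21.4%) among genes with at most 10%. Over all 13850 protein-coding genes tested, 20.5% were higher and 14.3% lower. Only the listed somatic markers were left out, so other genes of somatic cells remained in these counts. Spearman's rho was -0.17 across 13835 genes. What lies behind this feature was not tested.

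The first 31 codons of the 2 genes with the highest ratios among those named here, and of the 2 protein-coding ones with the lowest, are printed to show this feature and how far it varies, with T at the second codon position in capitals. They come from GENCODE M21 coding sequences on GRCm38, from genes at chr10:112083354-112108098 (Glipr1l2, plus strand), chr7:66743504-66823691 (Cers3, plus strand), chr7:19689481-19692660 (Apoc1, minus strand) and chr2:25466709-25470046 (Ptgds, minus strand). The number of such codons among codons 2 to 31 was 10 in Glipr1l2, 6 in Cers3, 13 in Apoc1 and 12 in Ptgds, so that Glipr1l2, high in IP, lay near the genes low in IP. Sycp3 and Hsp90aa1 had 5 and 7.
Glipr1l2: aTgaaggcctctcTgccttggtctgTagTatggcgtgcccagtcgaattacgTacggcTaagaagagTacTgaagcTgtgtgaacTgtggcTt
Cers3: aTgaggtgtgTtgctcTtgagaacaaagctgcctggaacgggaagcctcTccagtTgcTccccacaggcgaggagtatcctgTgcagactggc
Apoc1: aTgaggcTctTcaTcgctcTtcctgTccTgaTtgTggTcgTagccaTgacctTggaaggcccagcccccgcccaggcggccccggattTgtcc
Ptgds: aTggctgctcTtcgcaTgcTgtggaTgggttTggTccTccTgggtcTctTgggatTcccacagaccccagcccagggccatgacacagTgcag

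**Figure D5:**
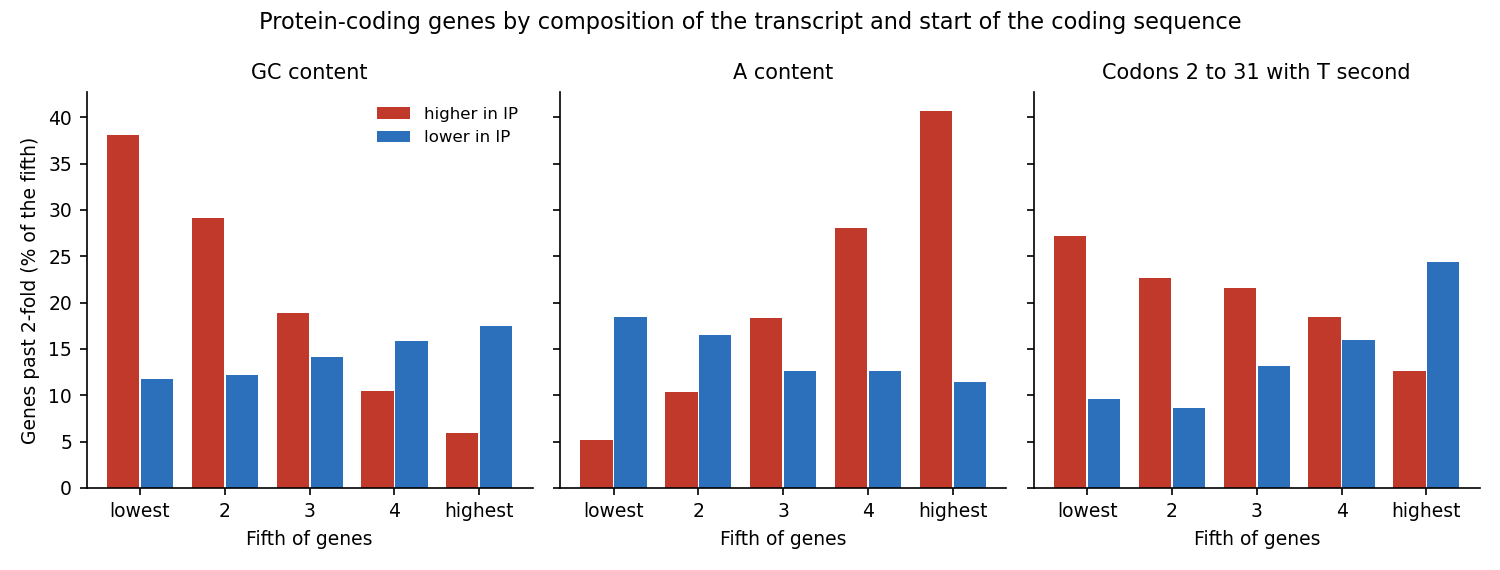
Share of protein-coding genes past 2-fold (vertical axis, % of the quintile) in quintiles of genes (horizontal axis, each a group of equal size, lowest to highest) by GC content, by adenine content of the longest transcript, and by the share of codons 2 to 31 with T second; red bars are genes higher in IP and blue bars genes lower. The share of genes higher in IP falls from 38.1% to 5.96% over the GC quintiles and climbs from 5.16% to 40.7% over the adenine quintiles, and the share of genes lower in IP goes from 9.54% to 24.4% from the lowest to the highest quintile of T-second codons.

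By chromosome, the share of genes higher in IP ran from 163 of 1085 on chromosome 7 to 163 of 593 on chromosome X, and the share lower from 10.1% on chromosome 12 to 18.2% on chromosomes 3 and X. The genes higher in IP held 21.3% of the summed INPUT means and 42.6% of the summed IP means. The genes lower in IP held 12.8% and 2.87%. Changes beyond 8-fold were few, with 22 genes higher and 44 lower.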

How the data were processed

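RNA-seq libraries of 3 IP, 3 INPUT and 3 BO samples from Mael-/- testes were analysed, grouped by their labels; the 3 TOTAL libraries entered the filter and the estimate of spread for repeats. Libraries were stranded and rRNA-depleted. For repeats, alignment to mm10 used STAR, Telescope redistributed reads of ambiguous origin, and the authors added the counts up by subfamily and normalised them with EBSeq; the deposited signal is this normalised count per library. The submitters' processing notes name STAR 2.6.0c and DESeq2 1.24.0. Each value was a whole multiple of a library's smallest step (100% of values, tolerance 0.1 of a read), so whole reads were recovered, on which edgeR called 39 transposable elements higher and 17 lower, and DESeq2 43 and 17. For genes and single copies, the deposited signal is the authors' mean of DESeq2-normalised counts per group; the gene annotation and counter are not given in the sources used here. Of 20981 genes, 20720 were matched to GENCODE M21, 832 of them through a synonym. Rows that start with N_ (unassigned or multimapped reads) were dropped. The authors' fold changes, p-values and test statistics are also in these tables and were not used, nor were the BO and TOTAL gene tables, which were normalised separately.

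The 1180 subfamilies whose 12-library mean reached 10 were fitted with limma 3.58.1 (lmFit, eBayes with a trend) in R 4.3.3 on log2(normalised count + 1), in 1 fit of 4 groups (IP, INPUT, BO and TOTAL share the estimate of spread) with Benjamini-Hochberg adjustment over all of them. Tested on counts drawn with the same dispersion for every subfamily and 200 of them changed by a log2 fold of 2, up or down, the fit called 99% of those and 1 unchanged. The real libraries vary unequally and many calls lie nearer the 2-fold limit, so these rates need not hold for them. edgeR 4.0.16 and DESeq2 1.42.0 on recovered reads were alternatives. Genes and copies were called past 2-fold with a pseudocount of 1 and an average of at least 10. No test was made for them, as only the group means were used and the authors' p-values were not.

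Named were every called transposable element, the 10 largest in each direction per library with subfamilies of the study's text, 5 in each direction outside these classes, the 15 highest and lowest genes with an average of at least 100 (symbols of Gm plus digits or ending in Rik left out), examples from each gene list by size or INPUT level, and the 3 copies of highest IP mean in L1Md_A, L1Md_T and MMERVK10C-int. Further list members were named after their values were seen. Some genes that this rule would name are not reported here. Members and lists were chosen with earlier results of these data known. Composition was taken from the longest transcript and the longest coding sequence in GENCODE M21, with scripts in Python 3.11.15. Recovered reads of IP libraries are fewer than those of INPUT, so low subfamilies are less precise there.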

Additional observations from a re-analysis of the deposited data

How the results depend on the processing

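The main counts were 32 transposable elements higher and 22 lower. They stayed within 1.5 times of that with a pseudocount of 0.1, no filter, a fit of the 6 libraries alone (35 and 22), edgeR (39 and 17), and DESeq2 or median ratio scaling (43 and 17), though the share of calls that were higher went from 59.3% to 69.6% with edgeR and 71.7% with the last 2. With a pseudocount of 10, 20 were higher. With a mean of at least 100, 20 were higher and 13 lower, and outside these classes 6 were lower; fewer subfamilies were tested there (639 transposable elements). Scaled to library totals they were 106 higher and 6 lower, with 23 higher outside these classes, and the B1_Mm log2 fold change and the IAPEz-int log2 fold change turned positive, to 0.0248 and 0.21. Leaving out a library in turn gave 25 to 30 higher and 19 to 26 lower among transposable elements, and 4 to 7 higher and 11 to 15 lower outside these classes. Log2 ratios of mean shares, an alternative chosen after seeing the data, ranged from 0.538 to 0.625 for LINE, -0.331 to -0.201 for SINE, 1.11 to 1.35 for L1Md_A, 1.83 to 2.03 for MMERVK10C-int and -3.71 to -3.49 for 7SLRNA. Same-numbered IP and INPUT libraries did not deviate together (correlations of -0.04, -0.13 and 0.05), so the numbers were not used as pairs, although an IP and an INPUT of the same number may come from the same pool; with a replicate block 33 were higher and 22 lower. For genes, 2387 were higher and 1163 lower of the 10554 with an average of at least 100, and scaling to the summed means gave 1303 higher and 4076 lower. For single copies a pseudocount of 10 gave 867 higher and 1164 lower, an average of at least 100 gave 67 and 79, and an INPUT mean of at least 10, chosen after seeing the data, gave 497 and 4327. As genes and copies come as group means, leaving out a library was not possible for them, and no error is given.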
